A study of Mus musculus with 12 samples.

Results

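Rab proteins are small GTPases that direct vesicle traffic, and the transcripts of their genes were followed in mouse bone marrow-derived macrophages (BMDMs). The genes were chosen by name: a mouse symbol of Rab, a number and at most a letter and a digit, without pseudogenes, and a mean of at least 10 counts over the 12 libraries. Of 35275 genes listed, 59 had such a symbol and 45 reached the mean. The other 14 were Rab3b, Rab3c, Rab4b, Rab6b, Rab9b, Rab17, Rab25, Rab26, Rab27b, Rab30, Rab33a, Rab39, Rab39b and Rab44. Their means lay between 0 counts (Rab9b, 0 in every library) and 8.5 counts (Rab4b). RNA had been sequenced from wildtype BMDMs that grew for 6 days with IL-4, IL-10 and M-CSF, cytokines that favour an M2-type macrophage. All 3 groups received these cytokines and differed in what was added, namely the solvent DMSO, the PARP inhibitor olaparib, or MNA (N-methylnicotinamide, a derivative of NAD), with 4 libraries each. The labels do not tie libraries to mice, so p values measure the spread between these libraries, which may be technical.

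A Rab protein cycles between a GTP-bound form that sits on a membrane and a GDP-bound form that is extracted into the cytosol. Guanine nucleotide exchange factors (GEFs) load GTP, GTPase-activating proteins (GAPs, most with a TBC domain) end the signal, and the escort and GDI proteins deliver and retrieve the lipid-modified protein. The GTP-bound form recruits effectors, among them motors, tethers and fusion factors, and each Rab marks its own compartment. In macrophages, Rab5 proteins act on early endosomes and young phagosomes and Rab7 on late endosomes, lysosomes and mature phagosomes, while Rab11, Rab10 and Rab27a serve recycling and delivery to the cell surface.

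Levels are in CPM, the counts of a gene brought to a common library total and scaled by edgeR's TMM method. The 45 genes took 0.401% to 0.420% of the counts of a library, out of 21146291 to 31446849 counts. The DMSO libraries gave a mean share of 0.408 ± 0.0064%, those with olaparib 0.410 ± 0.0049% and those with MNA 0.410 ± 0.0078% (SD, n = 4). The group means of this share differed by less than the SD between libraries. All 45 passed the filter on low counts, and differences were tested over all 12849 genes that passed, in 1 fit of the 12 libraries with edgeR's quasi-likelihood test. A gene is called higher or lower at a Benjamini-Hochberg adjusted p under 0.05, and every adjusted p comes from this test. Differences are log2 fold changes, also where only a value and its adjusted p are given.

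All 12 macrophage markers passed the filter on low counts, and their summed level was 5743 to 7763 CPM with DMSO, 10463 to 13524 with olaparib and 5229 to 8172 with MNA. The markers did not move as 1: 5 were called higher and 1 lower with olaparib, beside 14.3% and 12.8% of all genes. With MNA 2 were higher and 2 lower, beside 16.3% and 12.3%. MNA replicate 2 lay at -36.0 on the leading principal component, which held 49.8% of the variance, among the DMSO libraries (-43.7 to -33.6) and far from MNA replicates 1, 3 and 4 (59.9 to 63.4). It was kept under its label, and the MNA calls are also given without it. Leaving it out lowered the shared dispersion from 0.0333 to 0.0123, so it bears on the olaparib calls as well. Markers of other cells differed between the groups. The summed level of 10 neutrophil markers was 6.22 to 20.02 CPM with DMSO, 58.5 to 72.7 with olaparib and 5.62 to 80.9 with MNA, and 8 cell division genes gave 27.2 to 55.1, 75.4 to 154 and 34.0 to 129. With olaparib the neutrophil sum was nearly all Mmp8 (64.7 CPM), and Ly6g and Elane were at 0 in every olaparib library. The 12 markers of eosinophils, basophils and mast cells summed to 4.08 to 7.21, 30.5 to 58.3 and 4.98 to 11.1 CPM, with Epx at 0 with olaparib, and the 8 of erythroid cells and platelets to 6.07 to 10.97, 22.9 to 57.8 and 3.796 to 62.9. The 8 dendritic cell markers summed to 33.1 to 37.9 CPM with DMSO, 44.0 to 51.1 with olaparib and 39.5 to 59.7 with MNA, the 8 lymphocyte markers to 0.516 to 2.19, 1.38 to 7.59 and 1.50 to 14.7, and the 8 stromal and endothelial markers to 3.68 to 5.75, 7.49 to 9.37 and 2.72 to 4.195. In every one of these marker lists, that of macrophages included, the lowest MNA sum was the one of MNA replicate 2. Of 5 lymphocyte markers tested, 4 were called higher with MNA, and of 5 neutrophil markers tested, 2 were. Without MNA replicate 2, all 6 neutrophil markers tested were higher with MNA, and 3 macrophage markers were higher and 6 lower. Of all genes in that fit, 27.2% were higher and 26.9% lower. The part of these marker differences in the Rab results was not tested. In bulk RNA, fewer cells of a type and less RNA per cell cannot be told apart.

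To compare levels between Rab genes, levels were divided by the length of each gene's exons. With DMSO, Rab7, the Rab of late endosomes and phagosome maturation, stood first at 187 ± 2.66 CPM per kilobase (SD, n = 4). It was followed by Rab5c of the early endosome (136 ± 2.24), the 2 Rabs of transport from the endoplasmic reticulum to the Golgi, Rab1b (105 ± 1.10) and Rab1a (89.4 ± 2.38), and Rab10 of transport to the plasma membrane (72.3 ± 3.23). The 4 libraries of each of these 5 genes lay above all 4 of the next gene. Rab2a, which acts between the endoplasmic reticulum and the Golgi, came sixth at 51.0 ± 2.68 CPM per kilobase and overlapped with Rab8b (49.96 ± 3.14), which acts in polarized transport. Rab5b (43.0 ± 1), Rab7b (41.4 ± 3.27) and Rab31 (36.0 ± 1.54) completed the 10 highest, and neither Rab5b and Rab7b nor Rab7b and Rab31 were apart in every library. These 10 genes held 68.6% of the summed level per kilobase, and Rab7 alone 15.8%. The ranks depend in part on the length used. With the longest transcript as length, the 5 highest kept their order. Rab14 then ranked 7 at 55.7 CPM per kilobase, against rank 16 at 20.5 with summed exons, and Rab31 ranked 12.

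**Figure D1:**
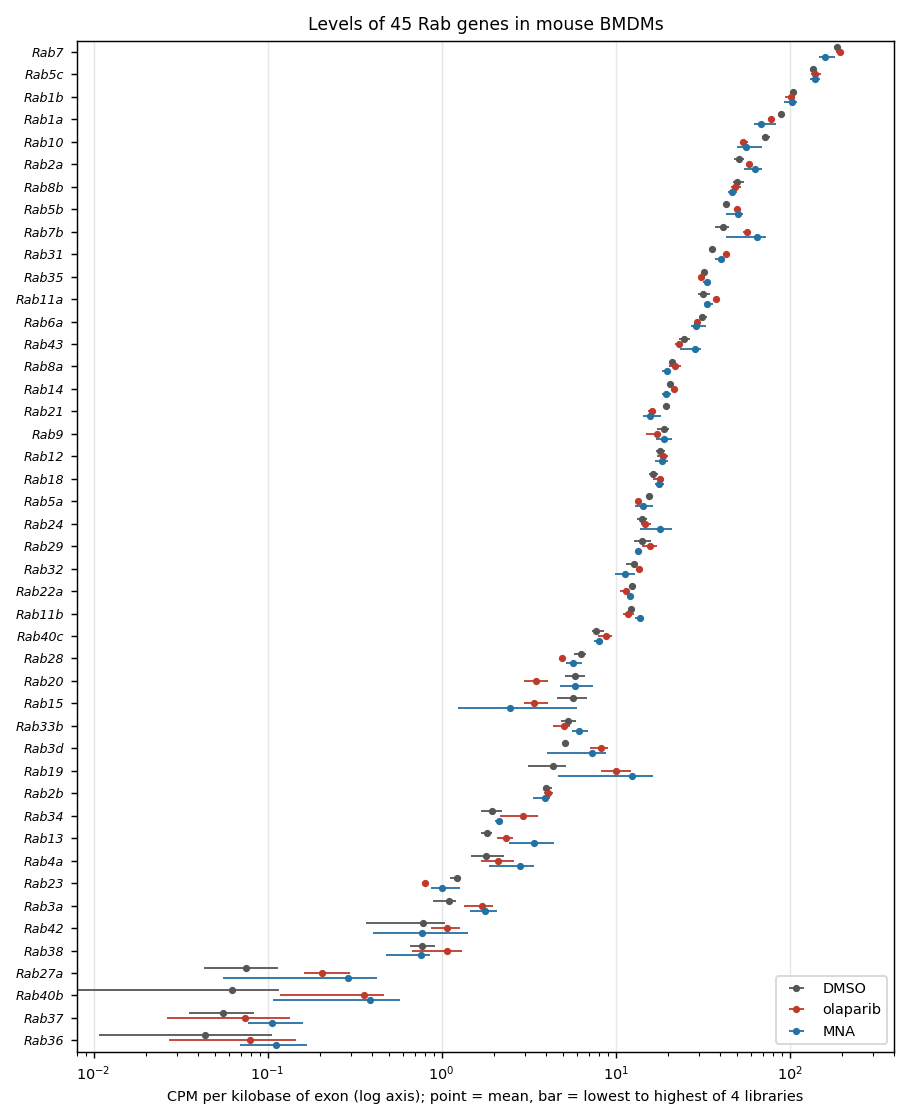
Level of each of the 45 Rab genes in CPM per kilobase of exon, on a log axis, for DMSO, olaparib and MNA. Points are means of 4 libraries and bars run from the lowest to the highest library. With DMSO, Rab7 leads at 187 and Rab36 is last at 0.0439 CPM per kilobase.

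Among the 8 Rab genes of secretion and the plasma membrane, Rab10, Rab8b and Rab8a ranked 5, 7 and 15 of 45 with DMSO, and others were rare. Rab3a (1.10 ± 0.148 CPM per kilobase), Rab27a (0.0753 ± 0.0294) and Rab37 (0.0551 ± 0.0203), all linked to exocytosis of stored vesicles, ranked 39, 42 and 44. Rab38, which serves melanosomes and related organelles, had 0.770 ± 0.126, against 12.7 ± 0.870 for its relative Rab32. In CPM, 14 genes were above 100 and 5 below 1. These 5 were Rab27a, Rab36, Rab37, Rab40b and Rab42, and their values rest on few counts. With DMSO alone, Rab27a, Rab36, Rab37 and Rab40b had means below 10 counts, so they became members through the treated libraries. They stay in the shares given below, but higher calls among them follow in part from that choice and are no support for a rise.

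With olaparib, 9 Rab genes were called higher and 6 lower than with DMSO. The higher ones were Rab3a, Rab3d, Rab5b, Rab7b, Rab11a, Rab19, Rab31, Rab34 and Rab40b, and the lower ones Rab5a, Rab10, Rab20, Rab21, Rab23 and Rab28. That is 20% and 13.3% of the 45, where 14.3% of all tested genes were called higher and 12.8% lower, so the share lower was near that of all genes. The median log2 fold change was 0.065 for the Rab genes and 0.0038 for all genes. An unadjusted p under 0.05 was reached by 19. The 7 calls of Rab10, Rab11a, Rab20, Rab23, Rab28, Rab31 and Rab34 held whichever library was left out. The number called higher was 9 with all libraries, 3 without olaparib replicate 4, 5 without DMSO replicate 3 and 5 without olaparib replicate 3. It was 11 without MNA replicate 2, with Rab2a and Rab27a added, and 8 were lower, with Rab1a and Rab15 added. Those are 24.4% and 17.8% of the Rab genes, beside 22.5% and 21.2% of all genes in that fit, so neither share stood far from that of all genes.

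With MNA, 11 Rab genes were called higher and 4 lower: Rab2a, Rab3a, Rab4a, Rab5b, Rab7b, Rab11b, Rab13, Rab19, Rab24, Rab27a and Rab40b against Rab1a, Rab7, Rab10 and Rab21. These are 24.4% and 8.89% of the 45, beside 16.3% and 12.3% of all genes. The median log2 fold change was 0.043, and 0.0002 over all genes. Without MNA replicate 2 the counts were 16 and 10 (35.6% and 22.2%, beside 27.2% and 26.9% of all genes), and all 15 calls were among them. The 4 lower genes then had log2 fold changes of -0.49 (Rab1a), -0.31 (Rab7), -0.50 (Rab10) and -0.38 (Rab21). Among the higher ones they were 0.37 for Rab2a, 0.77 for Rab3a, 0.81 for Rab4a, 0.30 for Rab5b, 0.20 for Rab11b, 0.44 for Rab24, 2.26 for Rab27a and 2.97 for Rab40b. The added genes were Rab3d, Rab31, Rab33b, Rab36 and Rab43, called higher, and Rab5a, Rab6a, Rab15, Rab23, Rab28 and Rab32, called lower. The 12-library calls rested on MNA replicates 1, 3 and 4: without replicate 1, 4 genes were called higher and 0 lower, and without replicate 3 or replicate 4 it was 2 and 0. In each of these 3 fits 4 genes were still lower at an unadjusted p under 0.05 from edgeR. Rab13 and Rab19 kept their call in all 12 fits that left out 1 library. In a fit of DMSO and MNA alone, edgeR called 0 higher and 0 lower, with 14 and 5 at an unadjusted p under 0.05. DESeq2 on all 12 libraries called 13 and 4. Leaving out DMSO replicate 2, 3 or 4 gave 5, 3 or 7 higher, and leaving out DMSO replicate 2 or 3 gave 2 lower. Olaparib and MNA were compared with the same DMSO libraries, so their values are given side by side and not as independent support for each other.

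**Figure D2:**
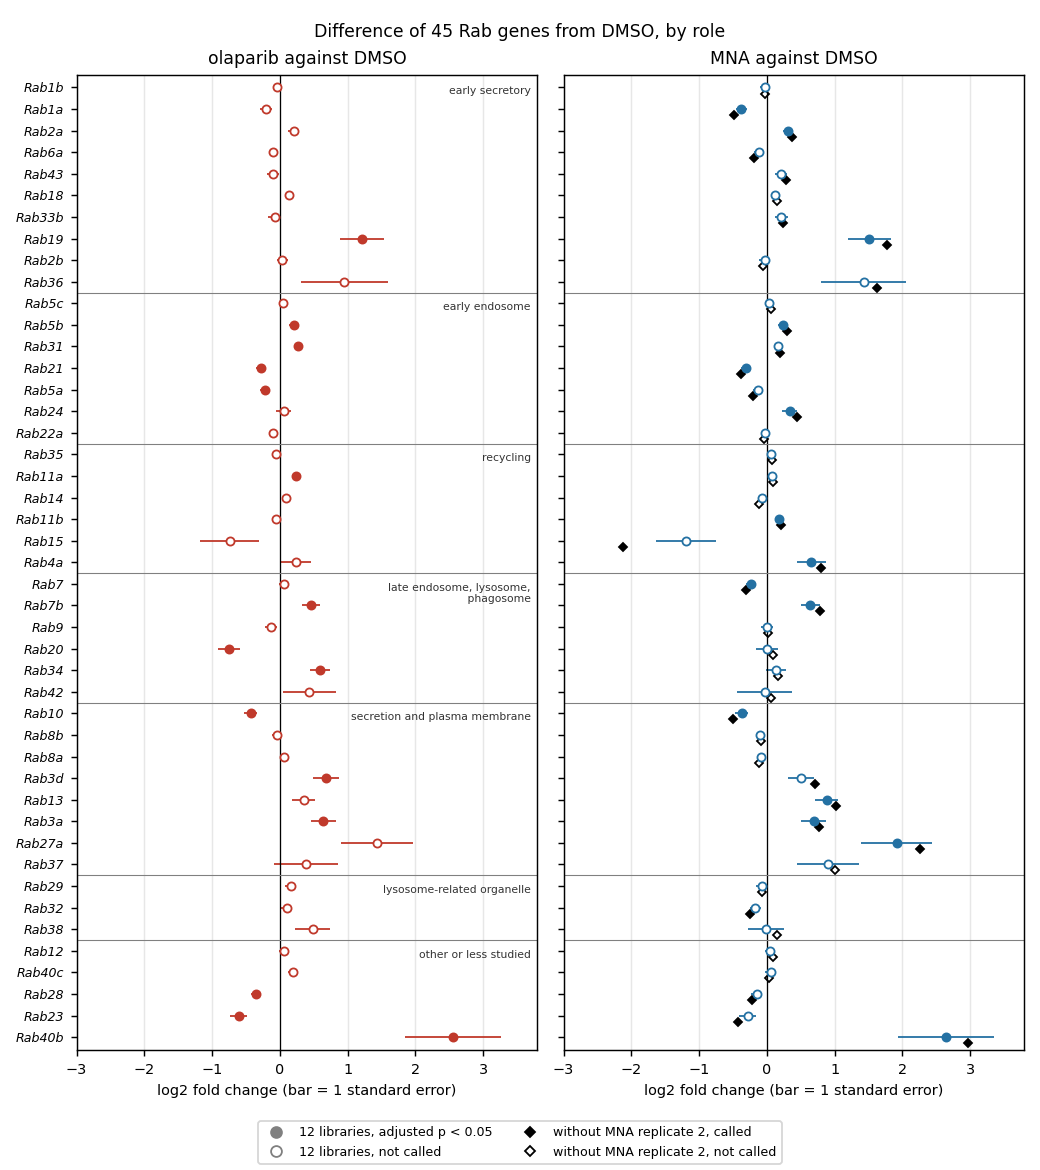
Log2 fold change against DMSO of each of the 45 Rab genes, by role, for olaparib (left) and MNA (right), with bars of 1 standard error. Filled circles are genes with an adjusted p under 0.05 over 12 libraries, diamonds the MNA value without MNA replicate 2. Rab19 lies at 1.21 and 1.51, Rab10 at -0.43 and -0.37, and the diamond of Rab15 at -2.13.

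Counts by role, here and below, stand beside 14.3% of all tested genes called higher and 12.8% lower with olaparib. With MNA these shares were 16.3% and 12.3%. Each role holds few genes, so such counts are descriptive, and no role was tested as a set. Among the 10 Rab genes of the early secretory route, 1 was called with olaparib, higher, and 2 were higher and 1 lower with MNA. Rab19 moved with both (ENSMUSG00000029923, chromosome 6, 39381175 to 39390380 of GRCm38), a Golgi-linked Rab with a part in cilia. It had 4.97, 6.57, 8.21 and 7.59 CPM in DMSO replicates 1 to 4, 13.0, 13.99, 17.3 and 19.3 with olaparib and 24.5, 7.31, 20.5 and 26.0 with MNA. All olaparib libraries and 3 of 4 MNA libraries lay above the highest DMSO library, while MNA replicate 2 lay within the DMSO range. Rab19 rose with olaparib (log2 fold change 1.21 with a standard error of 0.32, adjusted p = 0.0167) and with MNA (log2 fold change 1.51 with a standard error of 0.32, adjusted p = 0.0144). For Rab19, the olaparib call did not hold when olaparib replicate 4 was left out (adjusted p = 0.0506). Without MNA replicate 2 the MNA difference was 1.78 (adjusted p = 8.84e-07).

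The 2 Rab1 paralogs, which share the step from the endoplasmic reticulum to the Golgi, differed. Rab1a had 339, 328, 341 and 350.1 CPM with DMSO, 286, 289.9, 302 and 303 with olaparib and 249, 318, 236 and 244 with MNA, and every treated library was below the lowest DMSO library. It fell with MNA (log2 fold change -0.38 with a standard error of 0.086, adjusted p = 0.0165), and with olaparib its log2 fold change of -0.20 did not pass (adjusted p = 0.0971). For Rab1a, the MNA call did not hold when MNA replicate 1, 3 or 4 was left out (adjusted p of 0.0511 to 0.0565). Rab1b, not called, had 238 ± 2.497, 232 ± 13.97 and 233 ± 17.9 CPM (SD, n = 4). Within each library, Rab1a made up 45.8, 45.5, 45.8 and 46.9% of the summed Rab1 level per kilobase with DMSO, 44.3, 41.5, 42.6 and 44.2% with olaparib and 41.4, 45.5, 36.8 and 36.7% with MNA. This share needs no scaling between libraries, was chosen after the values were seen and was not tested.

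Rab2a, also of the early secretory route, went the other way. Its level was 116, 109, 107 and 103 CPM with DMSO, 119, 123, 129.99 and 127 with olaparib and 132, 116, 141 and 148 with MNA, where MNA replicate 2 alone touched the DMSO range. It rose with MNA (log2 fold change 0.31 with a standard error of 0.074, adjusted p = 0.0185). For Rab2a, the MNA call did not hold when DMSO replicate 3, or MNA replicate 3 or 4 was left out (adjusted p of 0.0502 to 0.0622). With olaparib the value was 0.20 (adjusted p = 0.0622) over 12 libraries and 0.20 (adjusted p = 0.0125) without MNA replicate 2. Rab6a of the Golgi had -0.12 (adjusted p = 0.179) with MNA, and -0.19 (adjusted p = 0.00943) without MNA replicate 2. Up to 10.7% of the 31-base words of Rab2a transcripts also occur in another gene. Rab43, Rab2b, Rab6a and Rab33b are less certain, since 75.4%, 64.0%, 19.0% and 18.7% of their exon bases lie in other annotated genes, that of Rab6a being Mrpl48 on the other strand, and Rab18 (lipid droplets and endoplasmic reticulum) was not called in either comparison.

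**Figure D3:**
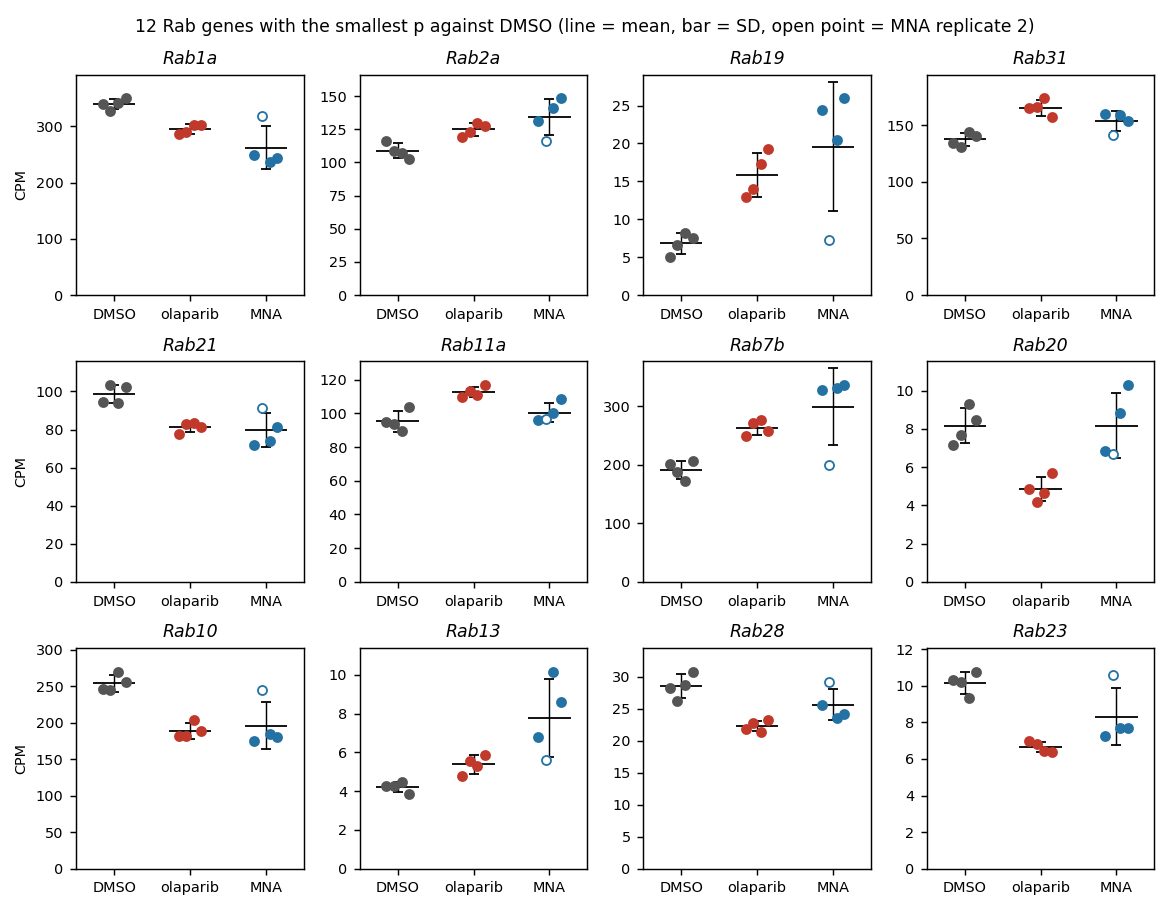
CPM in each library of the 12 Rab genes with the smallest p in either comparison with DMSO, with the mean (line) and SD (bar) of 4 libraries, from 0 on each axis. The open point is MNA replicate 2, which lies in or next to the DMSO range in Rab19 (7.31 CPM), Rab7b (200.4) and Rab10 (245).

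Of 7 early endosome Rab genes, 2 were higher and 2 lower with olaparib, and 2 higher and 1 lower with MNA. The Rab5 paralogs, which recruit the same early endosome effectors, did not move together. Rab5a (ENSMUSG00000017831, chromosome 17, 53479234 to 53507680) had 84.2, 78.4, 83.0 and 84.2 CPM with DMSO, 69.8, 69.5, 73.1 and 69.9 with olaparib and 70.6, 86.1, 76.7 and 67.7 with MNA. It fell with olaparib, with no overlap (log2 fold change -0.22 with a standard error of 0.071, adjusted p = 0.0349). With MNA its value was -0.13 (adjusted p = 0.166), and -0.20 (adjusted p = 0.00519) without MNA replicate 2. For Rab5a, the olaparib call did not hold when DMSO replicate 1, 3 or 4, or any olaparib replicate was left out (adjusted p of 0.0537 to 0.0812).

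Rab5b stood at 184, 175, 184 and 179.7 CPM with DMSO, 206, 206, 218 and 202 with olaparib and 217, 182, 226 and 227 with MNA. It rose with olaparib (log2 fold change 0.20 with a standard error of 0.070, adjusted p = 0.0479) and with MNA (log2 fold change 0.24 with a standard error of 0.070, adjusted p = 0.0296). Both calls were close to the threshold. For Rab5b, the olaparib call did not hold when any DMSO replicate, any olaparib replicate, or MNA replicate 1, 3 or 4 was left out (adjusted p of 0.0507 to 0.123). In the MNA comparison it failed when any DMSO replicate, or MNA replicate 1, 3 or 4 was left out (adjusted p of 0.0515 to 0.0924). The most abundant of the 3, Rab5c, was at 298 ± 4.92, 308 ± 17.6 and 305 ± 20 CPM and was not called. Rab5a made up 8.17, 7.71, 7.98 and 8.34% of the Rab5 level per kilobase with DMSO and 6.78, 6.63, 6.38 and 6.60% with olaparib, and Rab5b 22.4, 21.6, 22.2 and 22.3% and 25.1, 24.7, 23.9 and 23.8%, so both shares were apart in all 4 libraries. Of the 31-base words of Rab5b transcripts, 11.8% also occur in another gene.

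Rab21, an early endosome Rab that carries integrins, was lower with both treatments. Its level was 94.6, 103, 94.2 and 102 CPM with DMSO, 77.4, 82.9, 83.5 and 81.4 with olaparib and 72.1, 91.6, 73.9 and 81.2 with MNA, and no treated library reached the DMSO range. It fell with olaparib (log2 fold change -0.28 with a standard error of 0.075, adjusted p = 0.0180) and with MNA (log2 fold change -0.31 with a standard error of 0.075, adjusted p = 0.0185). For Rab21, the olaparib call did not hold when DMSO replicate 2 or 4 was left out (adjusted p of 0.0512 to 0.0529). For Rab21, the MNA call did not hold when DMSO replicate 2, or MNA replicate 1, 3 or 4 was left out (adjusted p of 0.0503 to 0.0601). Rab31, which acts between the trans-Golgi and endosomes and on phagosomes, had 134, 131, 144 and 140.3 CPM with DMSO, 165, 166, 174 and 157 with olaparib and 160.1, 141, 159 and 153 with MNA. It rose with olaparib (log2 fold change 0.27 with a standard error of 0.059, adjusted p = 0.00711) without overlap, and this call held in all 12 fits that left out 1 library. With MNA it had 0.16 (adjusted p = 0.0565), and 0.20 (adjusted p = 0.00915) without MNA replicate 2. Rab24, linked to autophagy, was called higher with MNA (log2 fold change 0.33 with a standard error of 0.11, adjusted p = 0.0379), at 37.1, 27.97, 42.6 and 37.1 CPM against 30.6, 28.5, 29.2 and 26.6 with DMSO. For Rab24, the MNA call did not hold when any DMSO replicate, olaparib replicate 1, 2 or 3, or MNA replicate 1, 3 or 4 was left out (adjusted p of 0.0509 to 0.119). Of its exon bases, 62.4% overlap exons of Prelid1 on the other strand, a gene with a mean of 4466 counts, and which strand the counts used is not given in the sources used here. Rab22a was not called in either comparison.

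Of the 6 recycling genes, 1 was called higher with olaparib and 2 with MNA. The Rab11 paralogs, which mark the recycling endosome, were called against DMSO with different treatments. Rab11a (ENSMUSG00000004771, chromosome 9, 64715299 to 64737758) had 94.7, 93.4, 89.3 and 104 CPM with DMSO, 109.9, 113, 111 and 117 with olaparib and 96.3, 96.4, 100.4 and 108 with MNA. All olaparib libraries and MNA replicate 4 lay above the DMSO range. It rose with olaparib (log2 fold change 0.24 with a standard error of 0.060, adjusted p = 0.0132), and the call held in all 12 fits that left out 1 library. With MNA Rab11a had 0.074 (adjusted p = 0.354). Its difference between olaparib and MNA, 0.17 (adjusted p = 0.0659), was not called. Rab11b had 76.6, 73.3, 73.4 and 78.0 CPM with DMSO, 67.7, 72.7, 78.7 and 71.6 with olaparib and 87.6, 79.2, 85.7 and 87.3 with MNA. It rose with MNA (log2 fold change 0.17 with a standard error of 0.058, adjusted p = 0.0442) and had -0.052 (adjusted p = 0.526) with olaparib. For Rab11b, the MNA call did not hold when any DMSO replicate, olaparib replicate 2 or 4, or MNA replicate 1, 3 or 4 was left out (adjusted p of 0.0506 to 0.116). Rab11a was 71.7, 72.3, 71.3 and 73.2% of the Rab11 level per kilobase with DMSO, 76.9, 76.1, 74.3 and 77.0% with olaparib and 69.2, 71.4, 70.6 and 71.8% with MNA. Of the 31-base words of Rab11b transcripts, 10.9% also occur in genes elsewhere, of which the pseudogene Rab11b-ps2 shares the most.

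Rab15, a Rab of endosomal recycling, is named here because MNA replicate 2 stood apart in it. It had 22.5, 29.7, 21.2 and 31.4 CPM with DMSO, 14.3, 18.9, 13.8 and 15.6 with olaparib and 6.25, 27.5, 5.75 and 5.99 with MNA. Every olaparib library was below DMSO, MNA replicates 1, 3 and 4 were lower still, and MNA replicate 2 lay inside the DMSO range. Over 12 libraries it was not called with olaparib (-0.74, adjusted p = 0.217) or with MNA (-1.20, adjusted p = 0.0578). Without MNA replicate 2 it was called lower in both, at -0.75 (adjusted p = 4.81e-04) with olaparib and -2.13 (adjusted p = 1.14e-07) with MNA, and it was higher with olaparib than with MNA by 1.38 (adjusted p = 1.18e-05). Rab4a, which serves rapid recycling, was called higher with MNA (5.18, 3.29, 5.48 and 5.95 against 2.58, 2.92, 3.08 and 4 CPM, log2 fold change 0.66 with a standard error of 0.22, adjusted p = 0.0430). For Rab4a, the MNA call did not hold when DMSO replicate 1, 2 or 3, olaparib replicate 1 or 2, or MNA replicate 1, 3 or 4 was left out (adjusted p of 0.0526 to 0.124). Rab14 and Rab35 were not called against DMSO.

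Among 6 Rab genes of late endosomes, lysosomes and phagosomes, 2 were higher and 1 lower with olaparib, and 1 was higher and 1 lower with MNA. Rab7b (ENSMUSG00000052688, chromosome 1, 131688695 to 131715439), which takes cargo from endosomes back to the Golgi and bears on Toll-like receptor traffic, had 200.5, 188, 172 and 206 CPM with DMSO, 249.8, 271, 276 and 257 with olaparib and 328, 200.4, 332 and 336 with MNA. MNA replicate 2 sat among the DMSO libraries and all other treated libraries above them. Rab7b rose with olaparib (log2 fold change 0.46 with a standard error of 0.14, adjusted p = 0.0288) and with MNA (log2 fold change 0.64 with a standard error of 0.14, adjusted p = 0.0147), and without MNA replicate 2 the latter was 0.79 (adjusted p = 3.18e-07). For Rab7b, the olaparib call did not hold when DMSO replicate 2 or 3, or olaparib replicate 2, 3 or 4 was left out (adjusted p of 0.0608 to 0.0824). For Rab7b, the MNA call did not hold when MNA replicate 3 or 4 was left out (adjusted p of 0.0510 to 0.0523).

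Rab7, the most abundant gene per kilobase, had 477, 492, 489 and 491 CPM with DMSO, 484, 508, 528 and 506 with olaparib and 387, 477, 405 and 390.4 with MNA. It fell with MNA (log2 fold change -0.23 with a standard error of 0.071, adjusted p = 0.0332), where replicate 2 was level with the lowest DMSO library at 477 CPM. With olaparib it had 0.056 (adjusted p = 0.580). For Rab7, the MNA call did not hold when any DMSO replicate, or MNA replicate 1, 3 or 4 was left out (adjusted p of 0.0517 to 0.102). Of the 31-base words of Rab7 transcripts, 16.3% also occur in genes elsewhere, of which the pseudogene Rab7-ps1 shares the most. Rab20, which acts in the maturation of phagosomes, had 7.17, 7.71, 9.28 and 8.48 CPM with DMSO, 4.88, 4.17, 4.67 and 5.68 with olaparib and 6.87, 6.70, 8.84 and 10.3 with MNA. It was lower in every olaparib library (log2 fold change -0.75 with a standard error of 0.16, adjusted p = 0.00608) and its value with MNA was 0.00095 (adjusted p = 0.997). Of its exon bases, 25.6% overlap E230013L22Rik, which had a mean of only 5.25 counts. Rab34, which takes part in lysosome positioning, had 5.30, 4.64, 4.02 and 4.57 CPM with DMSO, 5.19, 8.57, 7.49 and 6.69 with olaparib and 5.35, 4.84, 5.09 and 5.07 with MNA. It rose with olaparib (log2 fold change 0.59 with a standard error of 0.15, adjusted p = 0.0145), although olaparib replicate 1 lay within the DMSO range. The Rab20 and Rab34 calls with olaparib held whichever library was left out. Rab9, which returns receptors from late endosomes to the Golgi, and the sparse Rab42 were not called.

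Of the 8 Rab genes of secretion and the plasma membrane, 2 were higher and 1 lower with olaparib and 3 higher and 1 lower with MNA. The abundant one was Rab10 (ENSMUSG00000020671, chromosome 12, 3247428 to 3309969), which carries Toll-like receptor 4 and other cargo to the cell surface. It had 246, 245, 269.7 and 255 CPM with DMSO, 181, 181, 203 and 188 with olaparib and 175, 245, 185 and 179.9 with MNA. It fell with olaparib (log2 fold change -0.43 with a standard error of 0.098, adjusted p = 0.00851) and with MNA (log2 fold change -0.37 with a standard error of 0.098, adjusted p = 0.0216), and every treated library lay below the DMSO range, MNA replicate 2 by less than 1 CPM. The olaparib call held in all 12 fits that left out 1 library. For Rab10, the MNA call did not hold when DMSO replicate 3, or MNA replicate 1, 3 or 4 was left out (adjusted p of 0.0588 to 0.0715). Its relatives Rab8a and Rab8b had no call, with 0.065 and -0.045 with olaparib and -0.092 and -0.098 with MNA.

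Rab3d, Rab3a and Rab27a serve stored vesicles. Rab3d had 22.6, 21.8, 21.1 and 20.9 CPM with DMSO, 29.7, 33.6, 37.9 and 37.2 with olaparib and 37.0, 16.9, 33.2 and 35.5 with MNA. It rose with olaparib (log2 fold change 0.68 with a standard error of 0.19, adjusted p = 0.0221) and had 0.50 (adjusted p = 0.0633) with MNA, which became 0.70 (adjusted p = 7.93e-06) without MNA replicate 2, which was the lowest of all 12 libraries. For Rab3d, the olaparib call did not hold when DMSO replicate 2, 3 or 4, or olaparib replicate 3 or 4 was left out (adjusted p of 0.0521 to 0.0616). Rab3a had 2.44, 2.68, 1.98 and 2.67 CPM with DMSO, 3.003, 3.69, 4.38 and 4.18 with olaparib and 4.65, 3.22, 3.40 and 4.504 with MNA. It rose with olaparib (0.64, adjusted p = 0.0231) and with MNA (0.69, adjusted p = 0.0222), in both without overlap. For Rab3a, the olaparib call did not hold when DMSO replicate 3, or olaparib replicate 3 or 4 was left out (adjusted p of 0.0656 to 0.0694). For Rab3a, the MNA call did not hold when DMSO replicate 3, or MNA replicate 1, 3 or 4 was left out (adjusted p of 0.0538 to 0.0718). Rab27a rested on 6, 8, 5 and 14 counts with DMSO, 22, 16, 15 and 33 with olaparib and 40, 6, 31 and 36 with MNA. Its mean with DMSO was below 10 counts, so it became a member through the treated libraries. It was called higher with MNA (1.91, adjusted p = 0.0244), and with olaparib it had 1.43 (adjusted p = 0.0634), or 0.0478 with the replicate number as a block. For Rab27a, the MNA call did not hold when DMSO replicate 2 or 3, or MNA replicate 1, 3 or 4 was left out (adjusted p of 0.0596 to 0.0734).

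Rab13, which acts at cell junctions and in the leading edge of moving cells, had 4.27, 4.27, 4.46 and 3.87 CPM with DMSO, 4.77, 5.58, 5.30 and 5.89 with olaparib and 6.79, 5.59, 10.2 and 8.61 with MNA. All treated libraries lay above DMSO. It rose with MNA (log2 fold change 0.88 with a standard error of 0.17, adjusted p = 0.0142), by 1.01 (adjusted p = 4.42e-05) without MNA replicate 2, and had 0.35 (adjusted p = 0.138) with olaparib. Rab37 was not called. The 3 genes of lysosome-related organelles, Rab29, Rab32 and Rab38, were not called against DMSO over 12 libraries. Rab32, which also sits on mitochondria, had -0.24 (adjusted p = 0.0163) with MNA once MNA replicate 2 was left out.

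Among the 5 others, Rab23 (ENSMUSG00000004768, chromosome 1, 33719887 to 33742564), an inhibitor of Hedgehog signalling, had 10.3, 10.2, 9.31 and 10.8 CPM with DMSO, 6.96, 6.80, 6.44 and 6.38 with olaparib and 7.24, 10.6, 7.72 and 7.72 with MNA. Rab23 fell with olaparib (log2 fold change -0.61 with a standard error of 0.12, adjusted p = 0.00465) and had -0.29 (adjusted p = 0.0902) with MNA, or -0.43 (adjusted p = 0.00180) without replicate 2. Rab28, known from cilia and photoreceptors, had 28.3, 26.2, 28.7 and 30.8 CPM with DMSO, 21.9, 22.8, 21.4 and 23.2 with olaparib and 25.6, 29.1, 23.6 and 24.2 with MNA. It fell with olaparib (log2 fold change -0.35 with a standard error of 0.078, adjusted p = 0.00758), and both calls held whichever library was left out. With MNA the value of Rab28 was -0.15 (adjusted p = 0.149), and -0.22 (adjusted p = 0.0160) without replicate 2. Rab40b, which binds a ubiquitin ligase, was called higher in both (2.55, adjusted p = 0.0211 and 2.65, adjusted p = 0.0229) from 5, 5, 0 and 3 counts with DMSO, 24, 6, 20 and 27 with olaparib and 28, 6, 25 and 19 with MNA, so the size of its fold change is poorly known. It met the mean of 10 counts only through the treated libraries, so these calls follow in part from how members were chosen. For Rab40b, the olaparib call did not hold when DMSO replicate 4, or olaparib replicate 4 was left out (adjusted p of 0.0589 to 0.0601). For Rab40b, the MNA call did not hold when DMSO replicate 2, 3 or 4, or MNA replicate 1, 3 or 4 was left out (adjusted p of 0.0507 to 0.0674). Rab12 and Rab40c were not called.

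**Figure D4:**
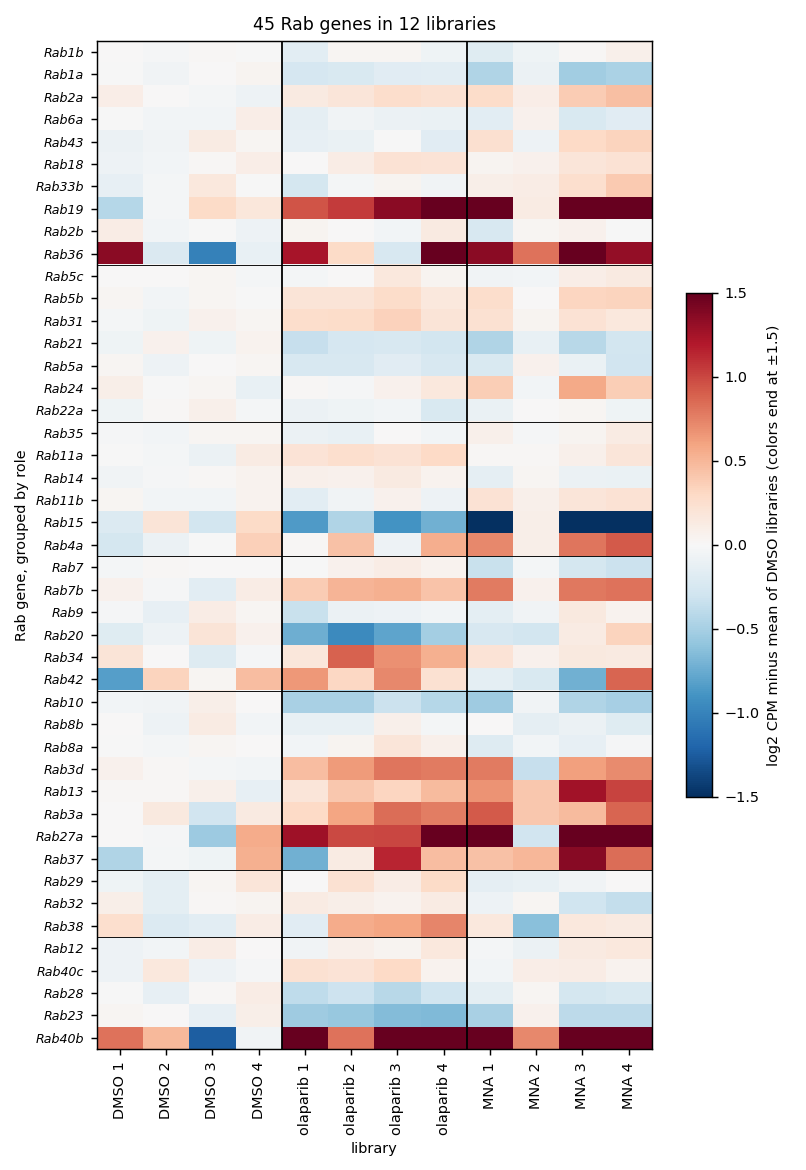
Log2 CPM of the 45 Rab genes in each of the 12 libraries minus the mean of the DMSO libraries, with rows grouped by role and colors ending at 1.5 in either direction. MNA replicate 2 looks like the DMSO columns, with a median absolute deviation from the DMSO mean of 0.073, against 0.224 to 0.319 in the other MNA libraries.

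Across the 45 genes, the median absolute deviation from the DMSO mean was 0.042 to 0.066 on the log2 scale in the DMSO libraries and 0.192 to 0.228 in the olaparib libraries. It was 0.224, 0.267 and 0.319 in MNA replicates 1, 3 and 4 and 0.073 in MNA replicate 2. Over the Rab genes, as over all genes, the library labelled MNA replicate 2 lay nearer to DMSO than any other treated library.

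The promoters of these genes were read to see what the members that moved together share. RefSeq promoters of GRCm38.p6, 250 bases before to 50 after a start site, were found for 38 of the 45 genes. The E-box TCACGTG, searched on both strands, was in 4 of the 38 (10.5%) and in 3.77% of all 32851 promoters (4.29% of genes). The shorter CACGTG inside it was in 6 (15.8%) and in 7.15% of promoters (8.09% of genes). The 6 were Rab5a, Rab20, Rab21, Rab23, Rab24 and Rab27a. Of the 6 genes lower with olaparib, 4 held CACGTG, and of the 32 other genes searched, 2 did. This is a description of sequence, with no test, and Rab10 and Rab28 had no match in this window. A pair of GAAA 2 bases apart, the core of the interferon-stimulated element, searched on both strands, was in 1 gene, Rab19, and in 3.44% of all promoters (3.99% of genes). The longer form with CT behind the pair was in 0 of the 38 and in 0.271% of all promoters (0.303% of genes).

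The promoters of Rab5a, Rab20, Rab21 and Rab23, all lower with olaparib, and of Rab24, which was not, are shown with CACGTG in capitals, and that of Rab19 with its overlapping GAAA pairs in capitals, which read TTTC on this strand. Each is 5′ to 3′ on the strand of the gene.
Rab5a, chr17:53478984-53479283, plus strand: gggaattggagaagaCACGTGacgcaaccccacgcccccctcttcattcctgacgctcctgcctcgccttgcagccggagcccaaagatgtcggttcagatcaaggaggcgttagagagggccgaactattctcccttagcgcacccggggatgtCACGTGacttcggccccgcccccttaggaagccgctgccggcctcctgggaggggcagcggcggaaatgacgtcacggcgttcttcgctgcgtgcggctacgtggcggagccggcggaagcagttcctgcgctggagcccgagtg
Rab20, chr8:11478591-11478890, minus strand: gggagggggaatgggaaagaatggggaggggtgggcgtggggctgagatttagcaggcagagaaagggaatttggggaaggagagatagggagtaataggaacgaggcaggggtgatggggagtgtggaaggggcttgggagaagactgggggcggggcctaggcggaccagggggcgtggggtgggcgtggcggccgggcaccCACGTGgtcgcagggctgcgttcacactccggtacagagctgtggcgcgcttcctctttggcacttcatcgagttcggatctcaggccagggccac
Rab21, chr10:115315542-115315841, minus strand: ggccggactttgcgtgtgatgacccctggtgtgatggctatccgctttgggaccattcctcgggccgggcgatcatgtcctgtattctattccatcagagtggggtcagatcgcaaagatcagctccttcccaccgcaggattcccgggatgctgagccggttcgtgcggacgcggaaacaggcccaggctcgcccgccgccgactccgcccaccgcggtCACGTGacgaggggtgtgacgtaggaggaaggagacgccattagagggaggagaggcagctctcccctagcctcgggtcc
Rab23, chr1:33719646-33719945, plus strand: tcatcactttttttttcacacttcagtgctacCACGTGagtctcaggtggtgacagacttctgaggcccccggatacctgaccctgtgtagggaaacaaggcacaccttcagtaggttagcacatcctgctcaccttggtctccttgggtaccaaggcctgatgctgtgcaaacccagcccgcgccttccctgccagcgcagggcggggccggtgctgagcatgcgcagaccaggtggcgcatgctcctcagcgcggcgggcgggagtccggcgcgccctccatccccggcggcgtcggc
Rab24, chr13:55321931-55322230, minus strand: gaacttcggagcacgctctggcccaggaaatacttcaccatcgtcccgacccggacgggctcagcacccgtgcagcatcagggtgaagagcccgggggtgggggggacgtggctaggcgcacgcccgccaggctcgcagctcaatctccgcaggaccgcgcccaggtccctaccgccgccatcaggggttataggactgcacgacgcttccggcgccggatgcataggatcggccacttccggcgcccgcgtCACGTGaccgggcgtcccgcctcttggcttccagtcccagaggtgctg
Rab19, chr6:39381103-39381402, plus strand: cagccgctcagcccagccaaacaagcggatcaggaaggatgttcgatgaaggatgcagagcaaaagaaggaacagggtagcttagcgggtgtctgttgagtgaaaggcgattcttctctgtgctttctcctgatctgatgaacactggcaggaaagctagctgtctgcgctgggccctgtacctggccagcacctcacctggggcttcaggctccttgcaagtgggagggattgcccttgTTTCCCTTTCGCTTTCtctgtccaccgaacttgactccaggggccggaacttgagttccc

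In Rab5a the match began 235 and again 95 bases before the start site, in Rab23 218, in Rab20 46 and in Rab21 30 bases before it, and in Rab24 2 bases after it. In Rab27a, whose promoter is not shown, it began 246 bases before the start site. The 4 that held the longer TCACGTG were Rab5a, Rab21, Rab23 and Rab24. On the log2 scale, the values with olaparib were -0.22 for Rab5a, -0.75 for Rab20, -0.28 for Rab21, -0.61 for Rab23 and 0.055 for Rab24. Rab27a went the other way, at 1.43 (adjusted p = 0.0634), and was called higher without MNA replicate 2.

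Olaparib and MNA were also compared with each other. Rab7, Rab32 and Rab34 were higher with olaparib and Rab11b, Rab13, Rab20 and Rab43 lower, 6.67% and 8.89% of the Rab genes beside 10.9% and 10.9% of all genes. Rab20 had the smallest adjusted p (log2 fold change -0.75 with a standard error of 0.16, adjusted p = 0.00663) and Rab7 the next (log2 fold change 0.29 with a standard error of 0.071, adjusted p = 0.0141), and both calls held whichever library was left out. Rab11b was lower with olaparib without overlap (-0.23, adjusted p = 0.0174). For Rab11b, the call did not hold when olaparib replicate 1 was left out (adjusted p = 0.0508). Rab43, of the Golgi, had 125, 128, 135 and 121 CPM with olaparib and 161, 129, 168 and 171 with MNA, and a difference of -0.30 (adjusted p = 0.0265). For Rab43, the call did not hold when olaparib replicate 1, 2 or 4, or MNA replicate 1, 3 or 4 was left out (adjusted p of 0.0590 to 0.0756). The calls of Rab13 (0.0412), Rab32 (0.0461) and Rab34 (0.0486) were near the threshold, and each was lost in 10 of the 12 fits that left out 1 library (adjusted p up to 0.116, 0.141 and 0.147). Their log2 fold changes were -0.53, 0.27 and 0.46. Rab13 kept its call without MNA replicate 1 or 2, Rab32 without DMSO replicate 2 or MNA replicate 2, and Rab34 without olaparib replicate 1 or MNA replicate 2. Fits without DMSO replicate 1, 3 or 4, olaparib replicate 2, 3 or 4 or MNA replicate 1 or 3 called 1 gene higher, and the number lower fell to 1 without olaparib replicate 1 and to 2 without olaparib replicate 2 or 4 or MNA replicate 3 or 4. Without MNA replicate 2, 7 genes were higher and 12 lower (15.6% and 26.7%), beside 21.5% and 20.7% of all genes. Of these, 6 genes had moved the same way against DMSO with both treatments in that fit and differed in size between them. Rab2a (-0.17, adjusted p = 0.0417), Rab7b (-0.33, adjusted p = 0.00111), Rab19 (-0.57, adjusted p = 0.00994) and Rab27a (-0.83, adjusted p = 0.0499), all higher than with DMSO, were lower with olaparib than with MNA. Rab1a (0.28, adjusted p = 6.75e-04) and Rab15 (1.38, adjusted p = 1.18e-05), both lower than with DMSO, were higher with olaparib than with MNA.

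The genes that run the Rab cycle were read from 5 lists. Of 35 GEF genes, 5 were higher and 12 lower with olaparib, and the median log2 fold change was -0.12. With MNA 4 were higher and 8 lower, with a median of 0.062. Rin2, a GEF for Rab5 proteins, rose with olaparib (log2 fold change 0.76, adjusted p = 0.00204), from 167 ± 23.0 to 283 ± 13.4 CPM, and with MNA (log2 fold change 0.60, adjusted p = 0.0144). Dennd1c, a GEF of the DENN family that acts on Rab35, rose with olaparib (log2 fold change 0.83, adjusted p = 0.00189), and Sbf1, whose protein MTMR5 also has a DENN domain, fell (log2 fold change -0.36, adjusted p = 0.00186). With MNA, Ric1, part of the GEF for Rab6, fell (log2 fold change -0.50, adjusted p = 0.0198) and Dennd5a, a GEF for Rab39, rose (log2 fold change 0.43, adjusted p = 0.0202). The MNA and DMSO libraries overlapped in Rin2 and Dennd5a, and did not in Ric1. In the fit that left out MNA replicate 2, 13 GEF genes were higher and 10 lower with MNA. Of all genes in that fit, 27.2% were higher and 26.9% lower.

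Of 36 genes for TBC-domain and other Rab GAPs, 3 were higher and 6 lower with olaparib and 4 higher and 3 lower with MNA. Tbc1d22a rose (log2 fold change 0.52, adjusted p = 8.86e-04) and Tbc1d8b (log2 fold change -0.60, adjusted p = 0.00130) and Evi5, a GAP linked to Rab11 (log2 fold change -0.50, adjusted p = 0.00159), fell with olaparib, all 3 without overlap. With MNA, Rab3gap2, part of the complex that acts on Rab3 and Rab18, fell (log2 fold change -0.39, adjusted p = 0.0176), as did Tbc1d20, a GAP for Rab1 (log2 fold change -0.43, adjusted p = 0.0204), while Tbc1d8 rose (log2 fold change 0.92, adjusted p = 0.0233). Rab3gap2 (log2 fold change -0.30, adjusted p = 0.0341) and Tbc1d20 (log2 fold change -0.48, adjusted p = 0.00839) also fell with olaparib. Of the 7 genes for prenylation and GDI proteins, 2 were called lower with olaparib and 1 with MNA. Rabggta, a subunit of the transferase that attaches the lipid, fell with olaparib (log2 fold change -0.53, adjusted p = 0.0222) and with MNA (log2 fold change -0.55, adjusted p = 0.0232). Rabac1, a prenylated Rab acceptor, fell with olaparib (log2 fold change -0.32, adjusted p = 0.0151), and Chm, which encodes an escort protein, had a log2 fold change of -0.17 (adjusted p = 0.165). Gdi2, an abundant GDI that extracts Rab proteins from membranes, had 0.13 (adjusted p = 0.128) with MNA.

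Without MNA replicate 2, 12 GAP genes were higher and 11 lower with MNA, beside 27.2% and 26.9% of all genes. Each regulator named here as called with MNA kept its call and direction in that fit. Of 43 effector genes, 35 were tested, and 7 were higher and 4 lower with olaparib, 4 higher and 7 lower with MNA. Rab11fip4, an effector of Rab11, had 6.66, 7.40, 8.28 and 8.19 CPM with DMSO, 25.0, 30.6, 32.4 and 37.9 with olaparib and 6.42, 7.38, 4.94 and 3.78 with MNA. Its olaparib libraries stood far above all others (log2 fold change 2.04, adjusted p = 3.80e-05), the smallest adjusted p of the 5 lists, and its MNA value was -0.44 (adjusted p = 0.0928). Rab11fip5, another Rab11 effector, fell with MNA without overlap (log2 fold change -0.27, adjusted p = 0.0150) and rose with olaparib (log2 fold change 0.21, adjusted p = 0.0206). Sytl1, a partner of Rab27 proteins, rose with olaparib (log2 fold change 2.63, adjusted p = 0.00278) from 0.237 ± 0.146 to 1.48 ± 0.598 CPM, a low level, and with MNA (log2 fold change 1.82, adjusted p = 0.0227). Unc13d, which primes Rab27a vesicles for release, rose with MNA (log2 fold change 0.77, adjusted p = 0.0156) and with olaparib (log2 fold change 0.74, adjusted p = 0.00954). Inpp5b, a phosphatase bound by several Rab proteins, fell with olaparib (log2 fold change -0.32, adjusted p = 0.00255), and Optn, an effector of Rab8, fell with MNA (log2 fold change -0.53, adjusted p = 0.0192).

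**Figure D5:**
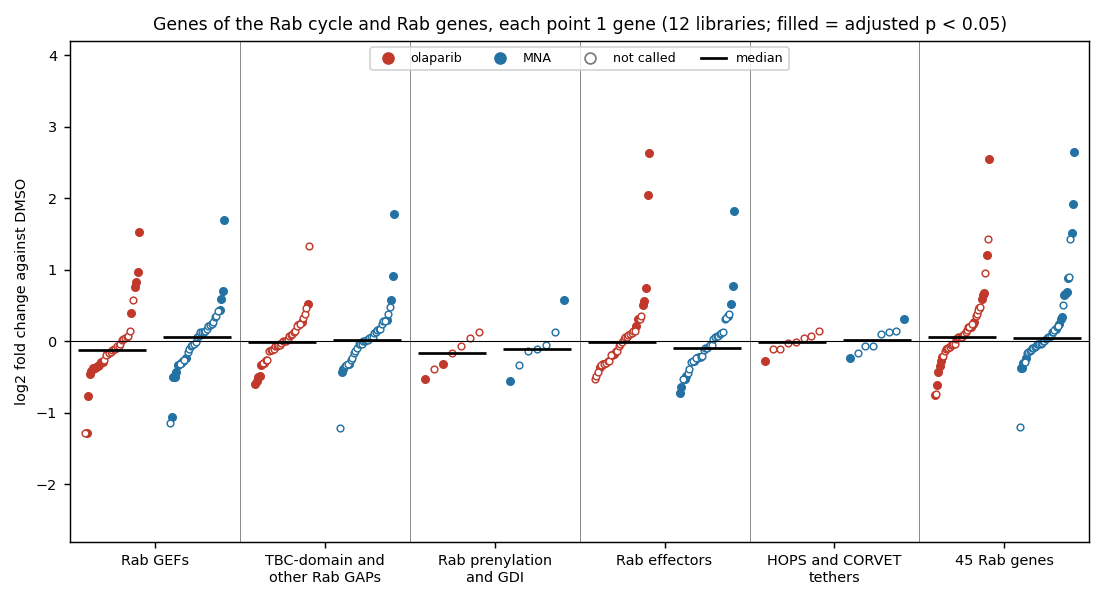
Log2 fold change against DMSO of the tested genes of 5 lists of the Rab cycle and of the 45 Rab genes, for olaparib and MNA, each point 1 gene and the line the median. Filled points have an adjusted p under 0.05 over 12 libraries. The GEF genes have a median of -0.12 with olaparib and 0.062 with MNA, and Rab11fip4 is the effector at 2.04.

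Of the 8 genes of the HOPS and CORVET tethers, which join Rab7 and Rab5 membranes, 1 was called lower with olaparib, and 1 higher and 1 lower with MNA. Vps18, of both complexes, was lower with olaparib (log2 fold change -0.27, adjusted p = 0.0290), although the libraries overlapped. Vps41 rose with MNA (log2 fold change 0.31, adjusted p = 0.0282) and Vps33a fell (log2 fold change -0.23, adjusted p = 0.0333), and with olaparib they had 0.14 and -0.11 (adjusted p = 0.242 and 0.244). Vps16 had 0.13 with MNA (adjusted p = 0.0909). The counts of the 5 lists over 12 libraries stand beside 14.3% of all genes called higher and 12.8% lower with olaparib. With MNA these shares were 16.3% and 12.3%, and the lists were not tested as sets.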

How the data were processed

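RNA from wildtype bone marrow-derived macrophages, 4 libraries per group, was sequenced after 6 days with IL-4, IL-10, M-CSF and DMSO, olaparib or MNA, from a stranded mRNA kit with single-end reads. The files deposited by the authors hold raw counts for each Ensembl gene, 1 file per library, and their processing notes name STAR 2.5.2b, GRCm38.p5 (mm10), DESeq2 and R 3.6.0. The strand setting of the counts is not given in the sources used here. Libraries were grouped by the labels, and 34490 of the 35275 genes matched GENCODE M21, which gave symbols, positions and exon lengths.

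Counts were fitted with edgeR 4.0.16 (R 4.3.3): genes kept by filterByExpr (minimum count 10, minimum total 15), TMM scaling, a quasi-likelihood F test in 1 fit of all 12 libraries with no block, and Benjamini-Hochberg adjustment over 12849 genes. A standard error is the log2 fold change over the root of F. Counts of 21146291 to 31446849 per library set the precision, and members near 10 counts are the least precise. On simulated counts of 12690 genes for olaparib against DMSO, 98 of 100 genes changed by 2 on the log2 scale and 84 of 100 changed by 1 were recovered, with 9 false calls. The changed genes were drawn only from those above a set level, so recovery of sparse genes and of smaller changes was not measured. Levels per kilobase used summed exon length, with the longest transcript as an alternative. Shared sequence was counted as 31-base words of GENCODE transcripts, promoters were RefSeq's on GRCm38.p6.

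Alternatives were DESeq2 1.42.0, other scalings and filters, stricter thresholds, 2 groups alone, a replicate block and leaving out each library. Values without MNA replicate 2 beside each result, and shares within paralog families, were chosen after seeing the data. The members and lists were chosen with earlier results of these data known. Every gene called in a comparison, the 10 highest levels, genes under the mean of 10 counts and, per list of regulators and comparison with DMSO, the 3 smallest p values were named, with library values for the 12 smallest p values among the Rab genes, and values of other members were added after they were seen. A regulator that this rule names is not reported here. Deviations of libraries with the same number correlated at 0.227, 0.172, 0.225 and 0.408 between olaparib and DMSO. They correlated at 0.242, 0.114, -0.0094 and 0.277 between MNA and DMSO, and at 0.0696, 0.137, 0.131 and 0.392 between olaparib and MNA. Libraries with different numbers were not correlated, so these values cannot show whether the number pairs libraries. The labels give no mouse, the main fit used no block, and the block was an alternative in all 3 comparisons.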

Additional observations from a re-analysis of the deposited data

Results flagged for a closer look

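Among 135 sets of 4 libraries (each of the 45 Rab genes in each group), 9 had a library whose gap to the nearest other, over the whole range, passed Dixon's 95% critical value for 4 samples. Chance flags about 1 in 20 such sets. MNA replicate 2 was the library in 6 of the 9.

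Rab10 (245 CPM, others 175 to 185), Rab1a (318, others 236 to 249), Rab15 (27.5, others 5.75 to 6.25) and Rab23 (10.6, others 7.24 to 7.72) were higher in MNA replicate 2 than in the other MNA libraries. Rab7b (200.4 CPM, others 328 to 336) and Rab38 (0.752 CPM, others 1.33 to 1.36) were lower in it. With olaparib, Rab40b was low in replicate 2 (0.236 CPM, others 0.841 to 0.941), Rab9 was low in replicate 1 (26.1 CPM, others 31.2 to 32.1) and Rab5a was high in replicate 3 (73.1 CPM, others 69.5 to 69.9). Rab5a in olaparib replicate 3 was still below each DMSO library.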

How the results depend on the processing

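No called Rab gene changed direction in any alternative run: over the pairs of a called gene and an alternative, 602 kept the call, 244 lost it and 0 reversed, and DESeq2 and the RLE and upper quartile scalings kept all 37 calls. Leaving out 1 library gave 3 to 11 genes higher and 4 to 8 lower with olaparib, 2 to 16 and 0 to 10 with MNA, and 1 to 7 and 1 to 12 for olaparib against MNA, with the highest numbers in all of these without MNA replicate 2.

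With an adjusted p under 0.01 in edgeR, 1 gene was higher and 4 were lower with olaparib. With MNA 0 were higher and 0 lower at that threshold, with 16 and 6 at an unadjusted p under 0.05. For olaparib against MNA 0 were higher and 1 lower, with 7 and 8 at an unadjusted p under 0.05. With an adjusted p under 0.05 and a change of at least 2-fold, 2 genes were higher and 0 lower with olaparib. It was 3 and 0 with MNA, and 0 and 0 for olaparib against MNA. In fits of 2 groups alone, edgeR called 11 genes higher and 8 lower with olaparib. Such fits called 0 higher and 0 lower with MNA, and 0 higher and 2 lower for olaparib against MNA. The number higher with olaparib than with MNA was 5 with upper quartile scaling, 1 with no scaling, 1 with no filter on low counts and 6 with a mean of at least 50 counts, against 3. The cause was not tested.

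With the replicate number as a block, 10 genes were higher and 6 lower with olaparib, 10 and 5 with MNA, and 3 and 4 for olaparib against MNA. The block lost the MNA call of Rab11b (adjusted p = 0.0561) and added Rab15 (adjusted p = 0.0192), and for olaparib against MNA lost Rab13, Rab32 and Rab34 (adjusted p = 0.0531, 0.0609 and 0.0828) and added Rab11a and Rab29, higher, and Rab33b, lower (adjusted p = 0.0432, 0.0460 and 0.0274). It changed no other call with olaparib than that of Rab27a. With the block and without MNA replicate 2, 14 genes were higher and 8 lower with olaparib. In that fit 16 were higher and 10 lower with MNA, and 8 were higher and 9 lower for olaparib against MNA.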
